A study of Mus musculus with 4 samples.

Results

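The enzymes that make prostaglandins and leukotrienes were followed in mouse dendritic cells, by reading every probe set (a group of short array probes for 1 transcript) that the platform annotation gives for 9 genes: Pla2g4a, Ptgs1, Ptgs2, Ptges, Alox5, Alox5ap, Lta4h, Ltc4s and Alox15. Of these 9 genes 7 were named by 11 probe sets, among 9473 measured genes in all. Ptgs1 and Alox5 were named by none and are not analysed here, so the constitutive cyclooxygenase and 5-lipoxygenase itself are missing from what follows. All 7 were above the floor (a signal of 33.3, the 40th percentile of all intensities) on at least 1 array, 1 of them (Alox15) on the media array alone. Of 12393 genes named by a probe set, 9473 were above it on at least 1 array. The floor is a rank among intensities and not a detection call. Of the 11 probe sets 6 were above the floor on all 4 arrays and 1 on none.

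The cells were IL10-/-DC, dendritic cells lacking the gene for the cytokine IL10, and were CD11c+, CD11c being the integrin that marks this lineage. The cultures lasted 6 h and received media only, SEA, LPS (lipopolysaccharide of the bacterial outer membrane, which signals through the receptor TLR4) or SEA/LPS, the combination of both agents. The IL10-/- genotype was common to all groups, the media control included, so no value compares it with cells that make IL10. SEA is not spelled out in the labels, and doses, tissue of origin, age and whether cultures or animals were separate are not stated there. Each of the 4 groups had 1 array, and the labels give all 4 the same lot. No test or standard deviation was therefore possible, and each difference below is between single arrays.

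Prostaglandins and leukotrienes are short-lived lipid mediators made from arachidonic acid. Cytosolic phospholipase A2, encoded by Pla2g4a, frees that acid from membranes. Cyclooxygenases (Ptgs1, constitutive, and Ptgs2, inducible) turn it into prostaglandin H2, from which Ptges makes prostaglandin E2, a regulator of dendritic cell maturation and migration. On the other branch 5-lipoxygenase (Alox5), aided by its activating protein (Alox5ap), makes leukotriene A4. Lta4h then makes leukotriene B4, a chemoattractant, and Ltc4s makes leukotriene C4, the first of the cysteinyl leukotrienes. Alox15 encodes a lipoxygenase that oxygenates arachidonic acid at other positions.

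The 4 arrays had 2% trimmed mean signals of 150.1 each. The share of probe sets above the floor was 57.3% with SEA/LPS and 60.6% to 61.1% on the other arrays. The median signal was also lowest with SEA/LPS, at 45.05 against 51.5 to 53.2. Itgax, which encodes CD11c, had signals of 2732 (media), 2181 (SEA), 1851 (LPS) and 2093 (both agents). Of 15 dendritic cell markers 13 were above the floor on all arrays, and Dpp4 was on none. Their summed signal was highest with LPS, at 39408, against 31409 in media, 31881 with SEA and 29329 with SEA/LPS, and its members went different ways. Ccr7 (1.99 log2) and Irf8 (1.96) were higher with LPS than in media where Itgax was lower (-0.56), and H2-Ab1 was lower with SEA/LPS than with LPS (-1.24). All 8 macrophage or monocyte markers with a probe set were above the floor on all arrays, Lyz2 being the brightest (9041 to 10399). Among these Ccr2 went from 319 in media to 36.7 with LPS and 81.3 with SEA/LPS, Cd14 from 1559 to 5401 and 4500, and Fcgr1 from 404 to 620.5 and 1036. The part of such marker differences in the enzyme results was not tested. For Gapdh, whose 3' to 5' signal ratio reflects RNA integrity, that ratio lay between 2.21 in media and 3.12 with SEA/LPS. Fewer cells of a type and less RNA per cell cannot be told apart in such bulk samples.

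Across the enzymes, Ptgs2 was the member that differed most between arrays. It was under the floor in media, exceeded that floor 43.8-fold with LPS, and was 2.68-fold lower when SEA was given with LPS. The genes acting before and after it, Pla2g4a and Ptges, had higher signals with LPS by less than 2-fold. The leukotriene genes Alox5ap and Lta4h had lower signals with LPS, also by less than 2-fold, and Lta4h was 2.16-fold lower with SEA/LPS than in media. These Lta4h values are of its brightest probe set, and a dimmer one was not lower with LPS (0.27 log2). A gene was counted as called at a difference of 2-fold or more (1 on the log2 scale) with the brighter array above the floor. Values at or under the floor were set to it before log2 was taken, so a difference against such an array is a lower bound.

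**Figure D1:**
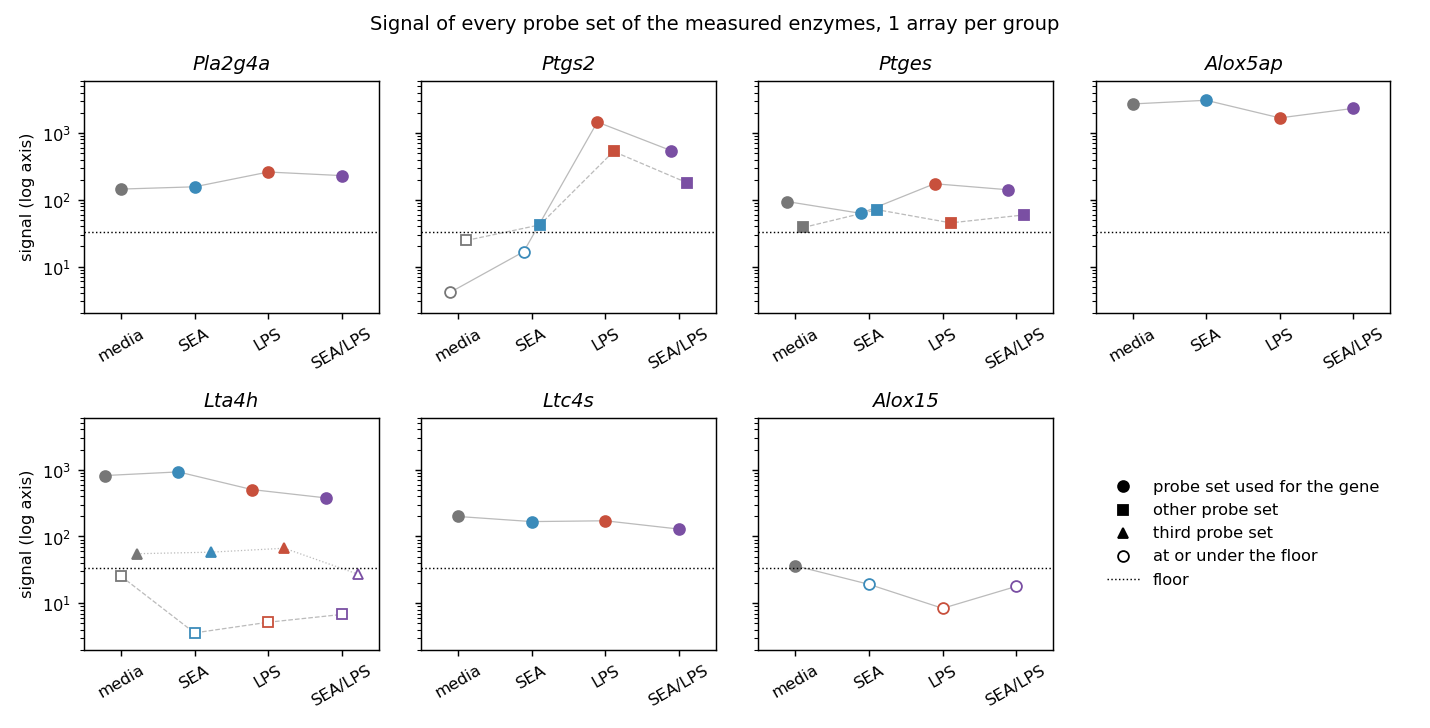
Signal (log axis) of all 11 probe sets of the 7 measured enzymes on the media, SEA, LPS and SEA/LPS arrays, 1 point per array, with open symbols at or under the floor of 33.3 (dotted line). Both Ptgs2 probe sets are highest with LPS and intermediate with SEA/LPS, whereas the other enzymes differ less between arrays.

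Pla2g4a lies at chr1:149829618-149961290 (GRCm38.p6), on the chromosome that also holds Ptgs2. Its signal was 145 (media), 156 (SEA), 261 (LPS) and 230.1 (both agents), so both arrays with LPS stood above both without it. The difference was 0.85 log2 (1.80-fold) for LPS over media and 0.11 for SEA over media. SEA/LPS differed from LPS by -0.18, which became 0.06 when the arrays were scaled to the hybridisation controls (spiked-in RNAs). The LPS difference became 0.30 under that scaling. None of these reached 2-fold.

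Ptgs2 lies at chr1:150100031-150108234. Its first probe set had a signal of 4.1 (media), 16.7 (SEA), 1459 (LPS) and 545.5 (both agents). The second had 24.6, 42.1, 530 and 179 in the same order. Both probe sets thus gave the same order of arrays, with LPS highest, SEA/LPS next and the others near or under the floor. LPS over media was at least 5.45 log2 (43.8-fold) on the first and at least 15.9-fold on the second. The bound of 5.45 ranked 9 from the top among 9473 genes, and it moved with the floor, to 4.27 at percentile 60 and 7.22 at percentile 20.

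With SEA/LPS the Ptgs2 signal was 37.4% of that with LPS on the first probe set and 33.9% on the second, that is 2.68-fold and 2.95-fold lower. It still lay at least 16.4-fold above media on the first probe set and at least 5.39-fold on the second. In cells that met SEA alone, the first probe set was at the floor, as in media, and the second was just above it at 42.1, at least 1.26-fold over media. Among all genes the difference of -1.42 for SEA/LPS over LPS ranked 81 from the bottom. It ranged from -1.49 to -1.18 over the settings of scaling, floor and choice of probe set tried, with the call kept in each.

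The Ptgs2 promoter is shown because Ptgs2 is the 1 enzyme of the 7 called in LPS over media, and that of Lta4h because it is the member called lower with SEA/LPS against media. Both are the 250 bases before the RefSeq transcript start, plus strand, GRCm38.p6, with matches to the motifs searched in capitals.
Ptgs2, chr1:150099781-150100030: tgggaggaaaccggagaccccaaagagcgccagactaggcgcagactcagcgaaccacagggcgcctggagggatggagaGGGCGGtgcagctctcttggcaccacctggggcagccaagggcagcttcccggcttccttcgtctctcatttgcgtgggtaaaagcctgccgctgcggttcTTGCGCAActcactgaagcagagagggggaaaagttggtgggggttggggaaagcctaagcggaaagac
Lta4h, chr10:93453146-93453395: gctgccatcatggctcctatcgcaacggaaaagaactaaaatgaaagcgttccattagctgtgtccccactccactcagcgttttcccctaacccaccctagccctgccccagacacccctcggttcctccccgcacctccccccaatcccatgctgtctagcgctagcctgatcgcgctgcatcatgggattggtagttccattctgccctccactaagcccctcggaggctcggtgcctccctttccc
The motifs were the E-box CACGTG, the cyclic AMP response element core TGACG, the C/EBP motif TTGCNNAA, the AP-1 motif TGANTCA, the TATA box TATAAA, the GC box GGGCGG and the STAT motif TTCNNNGAA, on both strands, in windows from 250 bases before to 50 bases after each start. The Ptgs2 window held a GC box whose first base lay 170 bases before the start, a C/EBP match 69 bases before it, a TGACG match from base 14 after the start and an E-box match from base 17, the last pair overlapping. Of 32851 windows of this length, 35.7% held the GC box, 10.8% the C/EBP motif, 20.8% TGACG and 7.15% the E-box. The Lta4h window held no match to these letters, nor did that of Ltc4s. The Ptges window held 2 GC boxes, at 53 and 42 bases before its start. A match describes letters and is not a binding site.

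Ptges, at chr2:30889471-30931020, encodes the inducible microsomal prostaglandin E synthase, which is often coupled to Ptgs2. On the brighter of its 2 probe sets the signal was 94.0 (media), 62.6 (SEA), 174 (LPS) and 141 (both agents). Both arrays with LPS stood above both without it, and LPS over media was 0.89 log2 (1.85-fold). The other probe set had signals of 38.5, 71.1, 45.1 and 59.4 in the same order, with SEA highest and media lowest. The probe sets thus disagreed on SEA over media (-0.59 against 0.88) and on SEA/LPS over LPS (-0.30 against 0.40). Neither direction for SEA is settled by these arrays. Scaling each array to its 75th percentile moved the LPS difference of the brighter probe set to 1.03, past 2-fold, and scaling to the hybridisation controls moved it to 0.34.

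Alox5ap, at chr5:149265004-149288153, encodes the membrane protein that presents arachidonic acid to 5-lipoxygenase. Its signal was 2723 (media), 3090 (SEA), 1683 (LPS) and 2339 (both agents). The LPS array was the lowest and SEA/LPS lay between it and media. The differences were -0.69 log2 (1.62-fold lower) for LPS over media and 0.47 (1.39-fold higher) for SEA/LPS over LPS, each keeping its sign over the settings tried. When scaled to the hybridisation controls the first was -1.24, past 2-fold, with the median of all genes at -0.56 under that scaling against -0.06 as deposited.

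Lta4h, at chr10:93453396-93484896, encodes leukotriene A4 hydrolase. On its brightest probe set the signal was 817 (media), 927 (SEA), 504 (LPS) and 378 (both agents). Both arrays with LPS stood below both without it. The difference was -0.70 log2 for LPS over media, -0.41 for SEA/LPS over LPS and -1.11 (2.16-fold lower) for SEA/LPS over media. A further probe set had 55.2, 58.2, 66.7 and 27.2, under the floor with SEA/LPS alone, so SEA/LPS was at least 1.66-fold lower than media on it, and its bound against LPS lay just past 2-fold. On that probe set LPS over media was not lower. The last of the 3 probe sets was under the floor on all arrays. The call in SEA/LPS over media stood just past the threshold, and was lost when arrays were scaled to the 75th percentile (-0.91) and when the probe sets were averaged (-0.92).

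Ltc4s, at chr11:50236461-50238532, encodes leukotriene C4 synthase. Its signal was 199 (media), 167 (SEA), 172 (LPS) and 129 (both agents). Media was highest and SEA/LPS lowest, with SEA and LPS close together. SEA/LPS over media was -0.63 log2 (1.54-fold lower), and LPS over media -0.21.

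Alox15, at chr11:70344147-70390538, had a signal of 36.4 in media, just above the floor, and 19.2 (SEA), 8.4 (LPS) and 17.9 (both agents) elsewhere, all under it. No order among the last 3 can be read, and the bound against media was 1.09-fold. With the floor lowered to percentile 20 the gene read -1.89 log2 for LPS over media, and with no floor (log2 of the signal plus 16) -1.10.

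**Figure D2:**
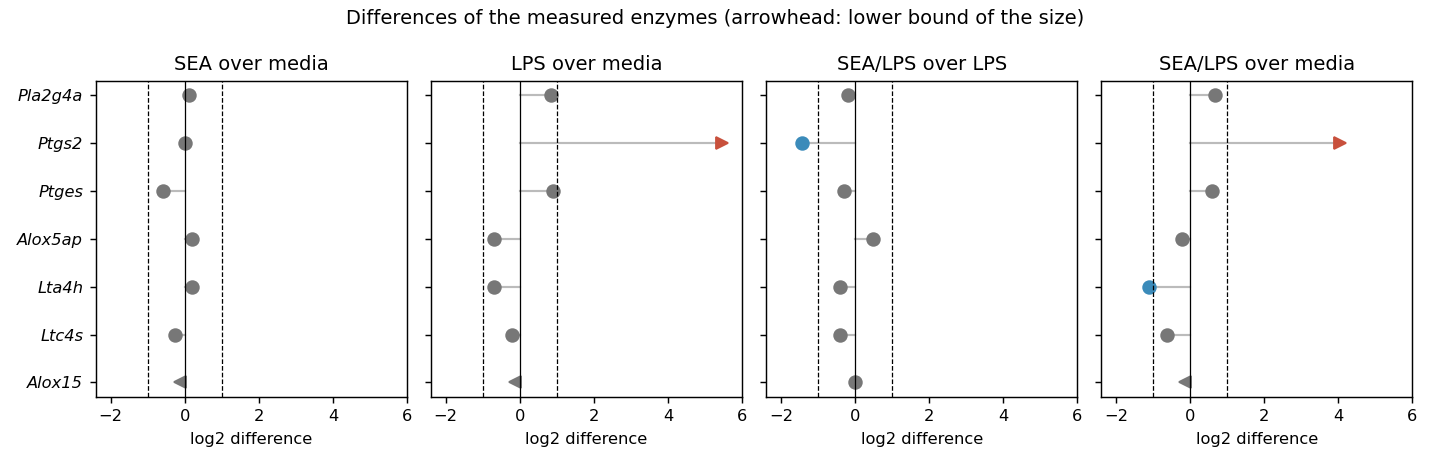
Log2 differences of the 7 measured enzymes in the 4 comparisons, 1 array against 1, with dashed lines at 2-fold, arrowheads for lower bounds, red for genes called higher and blue for genes called lower. Ptgs2 passes 2-fold in the 3 comparisons that involve LPS, and Lta4h in the one of SEA/LPS with media.

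The counts were read against the share of all 9473 genes called in the same direction. With SEA alone, 0 of 7 members were higher and 0 lower, where 0.644% of all genes were called higher and 0.633% lower. The member median was 0 and the values ran from -0.59 (Ptges) to 0.18 (Alox5ap). With LPS over media 1 of 7 members was higher and 0 lower, beside 6.06% and 8.43% of all genes. The member median was -0.13, with that of all genes at -0.06.

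For SEA/LPS over LPS 0 of 7 were higher and 1 lower, beside 1.39% and 3.47% of all genes. Of the 7, 5 were below 0, Alox5ap was above it and Alox15 was at the floor on both arrays; the median was -0.30, with -0.01 over all genes. For SEA/LPS over media 1 of 7 was higher and 1 lower, beside 4.54% and 7.05%. All pairs of these comparisons share an array, except SEA over media and SEA/LPS over LPS, so the counts are not independent.

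The SEA difference under LPS, less that without it, was -1.42 for Ptgs2, where the second term is 0 because media and SEA were both under the floor. Its second probe set gave -1.90, as a value that depends on the floor. Ptgs2 was the 1 member of 7 past 1 log2 (0 higher and 1 lower), beside 3.01% of all genes higher and 6.43% lower. The others ran from -0.59 (Lta4h) to 0.29 (Alox5ap).

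Beyond these enzymes, 96 further genes of the pathway were listed by role: 77 had a probe set and 62 were measured. With LPS over media 2 of 62 were higher and 8 lower, with a median of -0.17. SEA over media gave 1 higher and 0 lower, SEA/LPS over LPS 1 higher and 4 lower, and SEA/LPS over media 2 higher and 7 lower. Of all genes, 6.06% were higher and 8.43% lower with LPS, and 0.644% and 0.633% with SEA. The shares were 1.39% and 3.47% for SEA/LPS over LPS, and 4.54% and 7.05% for SEA/LPS over media. The same percentages apply to the counts by role below. For the SEA difference under LPS less that without it, 3 of the 62 were higher and 6 lower, beside 3.01% and 6.43% of all genes.

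Among 20 measured genes of arachidonate release and re-esterification, 2 were lower with LPS and 0 higher, beside 8.43% and 6.06% of all genes. Mgll encodes monoglyceride lipase, which frees arachidonic acid from an endocannabinoid. It had signals of 1477 (media), 1149 (SEA), 387 (LPS) and 588 (both agents), a difference of -1.93 log2 between LPS and media. Its other bright probe sets gave -1.90 and -1.17, and a dim one 0.44. Pla2g15, a lysosomal phospholipase, was lower by a similar size (signals of 346, 246, 76.3 and 110.4; -2.18). Both were also called lower in SEA/LPS over media (-1.33 for Mgll and -1.65 for Pla2g15). The second Pla2g15 probe set, near or under the floor, gave -0.31 in each comparison, and with probe sets averaged Pla2g15 read -0.98 for SEA/LPS over media, under 2-fold.

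Acsl4 encodes the ligase that prefers arachidonic acid and returns it to lipid. Its signal was 133 (media), 202 (SEA), 242 (LPS) and 360 (both agents), so SEA/LPS was 1.44 log2 above media. The other probe sets gave 0.73 and 1.86 for that comparison. Pla2g7, which encodes the platelet-activating factor acetylhydrolase, had signals between 2765 and 3675 (0.41 for SEA over media and 0.26 for LPS over media). Pla2g12b, a secreted phospholipase relative, was near the floor (40.4, 56.0, 50.2 and 24.6), and its SEA difference under LPS less that without it was -1.06. Of 7 annexins, proteins that bind membranes and can limit phospholipase A2, Anxa6 was called higher with LPS (1.15) and lower with SEA/LPS than with LPS (-1.11), with signals of 88.3, 130.6, 195.7 and 90.4. Scaling to the hybridisation controls took both under 2-fold (0.60 and -0.87), and with no floor the second was -0.99. Anxa1 had signals of 4962, 5337, 7526 and 5551, with 0.60 for LPS over media. Anxa7 had 316, 291, 518 and 469 (0.71), and Anxa4 had 2010.1, 2040.3, 1575 and 1968 (-0.35).

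Of 6 other prostanoid synthases, 1 was lower with LPS, beside 8.43% of all genes. This was Tbxas1, which encodes thromboxane A synthase and competes with Ptges for prostaglandin H2. Its signal was 391 (media), 401 (SEA), 128 (LPS) and 174 (both agents). Both arrays with LPS stood below both without it (-1.61 log2 for LPS over media and -1.16 for SEA/LPS over media, the latter -0.96 when scaled to the 75th percentile). Ptges2, a further prostaglandin E synthase, had signals of 94.4, 74.0, 63.4 and 63.8. Cbr1, a carbonyl reductase that acts on prostaglandin E2, had 157.5, 151.8, 122.9 and 81.2, with SEA/LPS lowest (-0.96 against media). Prxl2b, a prostamide and prostaglandin F synthase, had 87.6, 125.3, 110.0 and 59.0, highest with SEA and lowest with SEA/LPS (-0.90 against LPS). Hpgds, which makes prostaglandin D2, was above the floor with LPS alone, at 41.0.

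Platelets also make thromboxane, and the summed signal of their markers had the same order of arrays as Tbxas1, an order set by 2 of the 6 genes. Of 8 such markers 6 had a probe set, all above the floor on all arrays, with a summed signal of 4040 (media), 4777 (SEA), 2752 (LPS) and 3341 (both agents). Pf4 (2920, 3395, 2020 and 2431) and Ppbp (786, 1044, 341 and 619) made up most of it, both chemokine genes that myeloid cells can express. Itga2b (96.0, 117.6, 152.4 and 106.2) and Gp1bb (65.2, 90.3, 91.8 and 77.8) were instead highest with LPS, unlike Tbxas1. Gp9 and Gp5 had signals under 100 on all arrays. The part of platelet RNA in the Tbxas1 result was not tested.

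In breakdown and transport 1 of 7 genes was lower with LPS, beside 8.43% of all genes. This was Dhrs3, which encodes a retinaldehyde reductase and acts on retinoids rather than prostanoids. It was 142.5 in media, 272 with SEA and under the floor with LPS and SEA/LPS (at least 4.28-fold lower than media in each). That bound moved with the floor: at percentile 60 both differences were -0.92 and no longer called, and at percentile 20 LPS over media was -3.66. Ptgr1, which inactivates leukotriene B4 and reduces prostaglandin metabolites, had signals of 883, 1084, 550.4 and 750.2 (-0.68 for LPS over media). Abcc1, an exporter of leukotriene C4, had 459, 439, 618 and 663 (0.43). The epoxide hydrolase genes Ephx1 (241, 243, 164 and 152) and Ephx2 (61.8, 50.6, 48.7 and 32.9) were lowest with SEA/LPS, at -0.66 and -0.89 against media.

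Of 13 lipoxygenases, relatives of Ltc4s and leukotriene-processing genes, 1 was lower with LPS, beside 8.43% of all genes. This was Cotl1, whose product binds actin and 5-lipoxygenase (-1.14, with signals of 2505, 2592, 1139 and 2022). That probe set belongs to a class that may cross-hybridise. The 3 others of that class gave -0.94, -0.79 and -1.10, and the one outside it gave -0.16. The mean of all probe sets was -0.82. Mgst1, Mgst2 and Mgst3, microsomal glutathione transferases related to Ltc4s, were all lower with LPS by less than 2-fold (-0.98, -0.34 and -0.78) and all were above LPS with SEA/LPS (0.62, 0.18 and 0.29). Cyp4f18 encodes a cytochrome that inactivates leukotriene B4. Its signals were 182, 194, 201.1 and 90.6, so the SEA/LPS array alone stood apart (-1.15 against LPS, and -0.91 when scaled to the hybridisation controls; -1.01 against media, but -0.80 when scaled to the 75th percentile, -0.78 under quantile normalization and -0.89 with no floor). Cyp4f13 was the 1 gene of the pathway called higher with SEA (1.01; signals of 65.2, 131.3, 115.9 and 50.1), just past 2-fold and called in 5 of 9 settings: it was lost under quantile normalization (0.99), scaling to the hybridisation controls (0.92), the floor at percentile 60 (0.80) and no floor (0.86). It was also called lower in SEA/LPS over LPS (-1.21), in 6 of 9 settings, and read -0.97 with the hybridisation controls and -0.62 with the floor at percentile 60. Cyp4f16 was called lower in SEA/LPS over media (-1.32, but -0.42 with the floor at percentile 60 and -0.56 with probe sets averaged), and its other probe set read 0.20.

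Receptors for the products were measured as well. Of 5 measured prostanoid receptors, Ptgir, for prostacyclin, was called lower with LPS (-1.17; signals of 171, 91.4, 76.0 and 101.7). Ptger4, a prostaglandin E2 receptor, had signals of 473, 390.2, 455 and 478 (-0.28 for SEA over media and -0.06 for LPS over media). Ptger2, another of its receptors, had 170, 141, 94.0 and 93.7 (-0.85 for LPS over media). Tbxa2r, the thromboxane receptor, had 89.6, 68.9, 80.8 and 81.2. Ptgdr, for prostaglandin D2, was at 85.3 with LPS and under the floor with SEA/LPS, at least 2.56-fold lower, a call that ended with the floor at percentile 60.

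Of 4 measured receptors for leukotrienes and lipoxygenase products, Fpr2, a formyl peptide receptor that also binds lipoxin A4, was called higher with LPS and with SEA/LPS over media. Its signal was 486 (media), 535 (SEA), 1445 (LPS) and 1999 (both agents) (1.57 and 2.04 log2 over media). Ltb4r1, the high-affinity leukotriene B4 receptor, was called lower in both (397, 534.5, 180 and 160; -1.14 and -1.31). Both arrays with LPS stood below both without it. Cysltr1, a cysteinyl leukotriene receptor, was at 97.7 (media), 66.7 (SEA), 34.4 (LPS) and 76.1 (both agents), that is -1.51 for LPS over media and 1.15 for SEA/LPS over LPS. Its second probe set gave -0.96 and 0.80, and with the floor at percentile 60 both calls were lost (-0.37 and 0.01). The second was also lost with no floor (0.87) and with probe sets averaged (0.97). Cysltr2 was near or under the floor on all arrays.

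**Figure D3:**
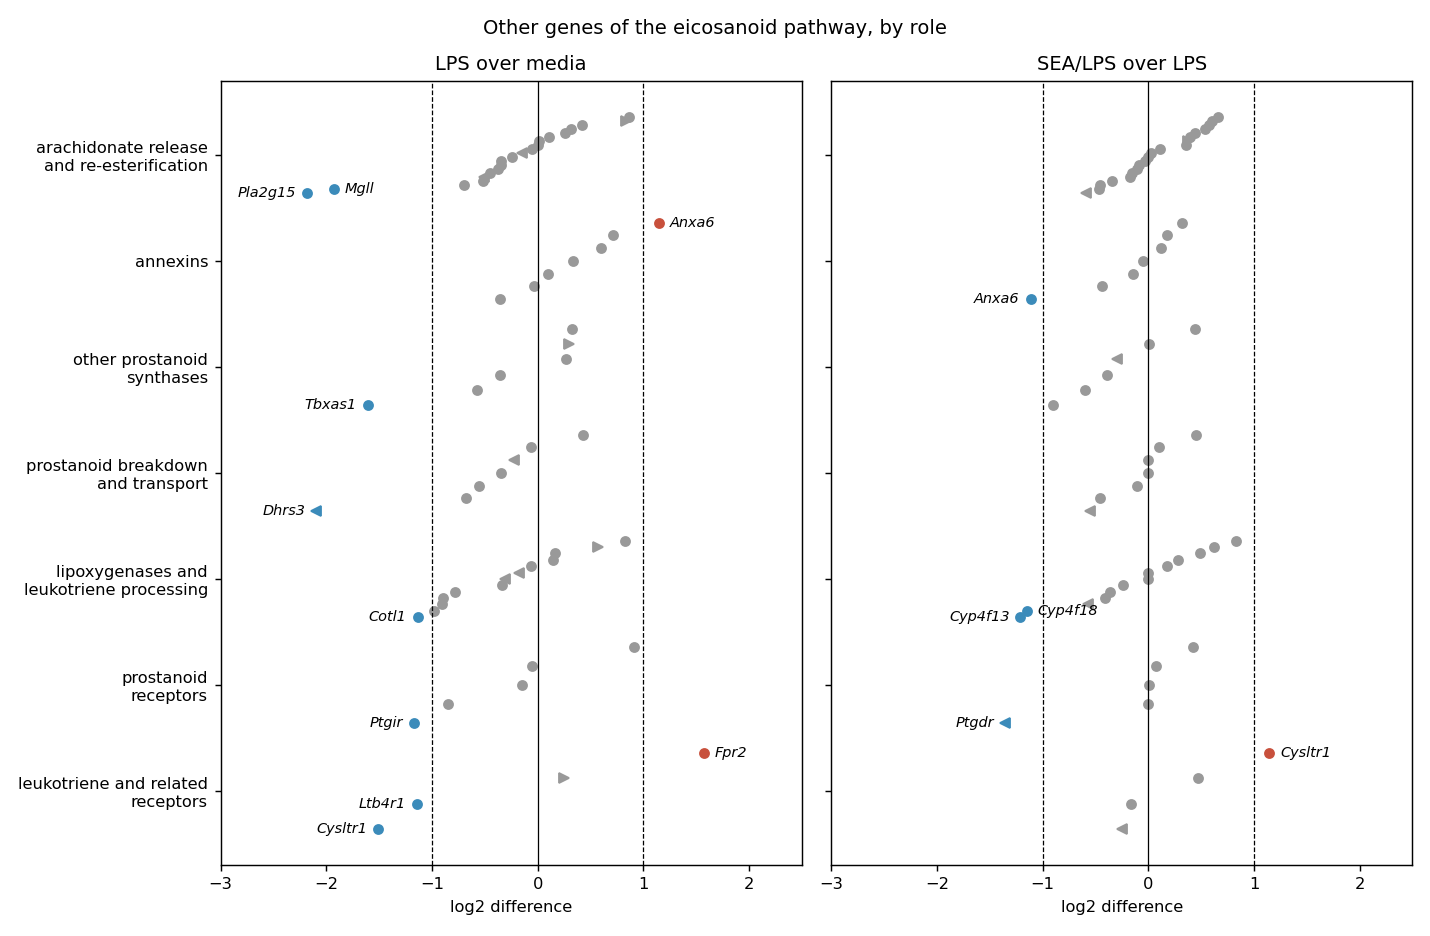
Log2 differences of the 62 measured pathway genes by role, for LPS against media and for SEA/LPS against LPS, 1 point per gene, with dashed lines at 2-fold, arrowheads for lower bounds and called genes named. In LPS over media 8 genes are called lower and 2 higher, and in SEA/LPS over LPS 4 lower and 1 higher.

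Mast cells, neutrophils and eosinophils also express enzymes of these branches, so their markers were read on the same arrays. Of 12 mast cell or basophil markers with a probe set 8 were above the floor on at least 1 array, and their summed signal was 324 (media), 291 (SEA), 615 (LPS) and 407 (both agents), highest with LPS and next with both agents, as was Ptgs2. Most of the difference between arrays came from Hdc, the histidine decarboxylase (1.3, 3.9, 129.6 and 69.9), and Tpsab1, a tryptase (18.0, 44.7, 126.7 and 85.2). Ms4a2, Tpsb2, Mcpt2 and Cma1 were dim but also highest with LPS, at 54.9, 55.8, 53.6 and 45.4. Cpa3 (66.5) and Kit (53.4) were instead highest in media. Fcer1a, Mcpt1, Mcpt4 and Mcpt8 were under the floor on all arrays, and Kit was between 36.1 and 53.4. The part of mast cells in the Ptgs2 result was not tested.

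Neutrophil markers, 7 of 9 above the floor on at least 1 array, summed to 408 (media), 451 (SEA), 945 (LPS) and 981 (both agents). Lcn2, which many cells express, gave most of that difference (38.4, 30.5, 392.1 and 448.7), while S100a9 and Camp were under the floor on all arrays. S100a8 (85.1, 90.1, 154.7 and 182.1), Ngp, Ltf and Mpo were above the floor on all arrays. Elane was under it in media alone, and Cxcr2 was above it with LPS and SEA/LPS. S100a8 was 1.10 log2 higher with SEA/LPS than in media. Eosinophil markers, which bear on Alox15, had 2 of 6 above the floor, summed to between 80.5 and 144.5, and had Prg2, Prg3, Ccr3 and Il5ra under the floor on all arrays. The brightest was Siglecf (42.1 to 51.9). For B cells 4 of 6, for T cells 3 of 8, for NK cells 5 of 6 and for stromal cells 2 of 7 markers were above the floor on at least 1 array, and Cd3e, Cd3d, Pax5 and Pdgfra were on none. Of all genes named by a probe set 9473 of 12393 were so, and the marker counts are to be read beside that. By their highest array, the brightest of these lists were Blk (61.0 to 101.8), Cd8a (27.1 to 61.7), Klrg1 (14.4 to 84.1) and Col1a2 (88.1 to 130.5).

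The genes closest to Ptgs2 in pattern were found as those with the smallest root mean square difference in the 3 log2 differences from media (SEA, LPS and SEA/LPS), over 4 arrays. They were Cd40, a costimulatory receptor (0.36), Rsad2 (0.42) and Ifih1 (0.60), both antiviral, Il12b, a cytokine subunit (0.61), and Cxcl10, a chemokine (0.66). Ptgs2 enters at a lower bound, so this order depends on the floor. Among these 5, the step from LPS to SEA/LPS was smaller than that of Ptgs2 for 4 and larger for Il12b, whose signal was 1827 with LPS and 271 with SEA/LPS.

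For Lta4h the closest were Plpbp (0.04), Ehbp1l1 (0.05), Ethe1 (0.05), Scamp5 (0.06) and Pcyox1 (0.07). For SEA/LPS over media, Ethe1 was at -1.14, Scamp5 at -1.13, Plpbp at -1.12 and Ehbp1l1 at -1.09, where Lta4h was at -1.11. Pcyox1 was the farthest of the 5 from Lta4h there, with signals of 185 in media and 92.4 with SEA/LPS.

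**Figure D4:**
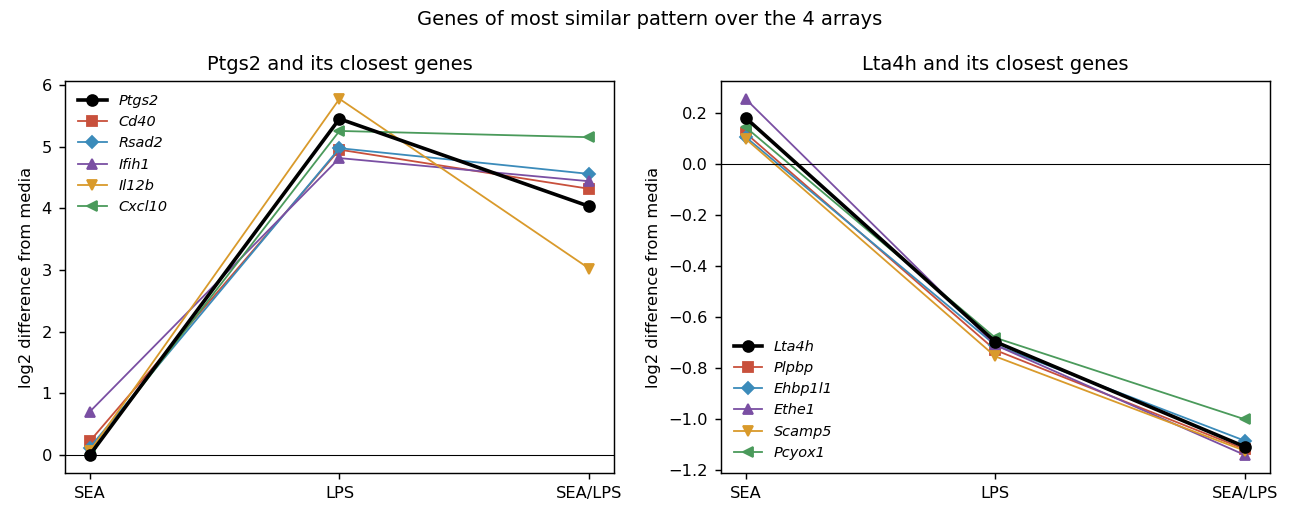
Log2 differences from media of Ptgs2 (left) and Lta4h (right) in black with the 5 closest genes of each, on the SEA, LPS and SEA/LPS arrays. Ptgs2 lies at 5.45 with LPS and 4.03 with SEA/LPS, between Il12b and the other 4 genes on the SEA/LPS array, and Lta4h lies at -0.70 and -1.11.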

How the data were processed

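Total RNA of 4 samples was measured on 1-colour Affymetrix arrays. The deposited unit, judged from the values, is a linear intensity already scaled by the authors to a common trimmed mean. The software and background correction were, in the labels and file, not stated. Scaling fixes each array's average, so a change in total RNA is not visible.

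Of 22690 probe sets, 20380 carried 1 gene symbol in the platform annotation (updated by Entrez identifier through RefSeq, GRCm38.p6), 691 several and 1555 none, beside 64 controls. Python 3.11.15 with pandas 2.3.3 was used. A floor was set at the 40th percentile of all deposited intensities, and lower ones were raised to it, and a gene took its probe set of highest mean log2. The code of the size calls was run on simulated arrays with changes well past 2-fold in bright probe sets and little noise. That run checks the code alone. It does not bear on dim signals, differences near 2-fold or the spread between cultures. Members, lists and rules were chosen with earlier results of these data known. All members were described. Of the listed pathway genes, those called in a comparison were named, with the up to 4 of largest difference per list. For marker lists the rule was Itgax and the brightest marker of each other cell type. Other pathway and marker genes named were chosen after their values were seen. Promoter windows of 7 members were in the RefSeq table. Alternatives covered scaling, floor, probe set and size threshold. With 1 array per group, leaving out a replicate was not possible.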

Additional observations from a re-analysis of the deposited data

Results flagged for a closer look

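For 2 enzymes the SEA difference had opposite signs with and without LPS. With 1 array per group the difference was not tested. Lta4h was at 0.18 log2 for SEA over media and -0.41 for SEA/LPS over LPS, a gap of -0.59. Pla2g4a was at 0.11 and -0.18, a gap of -0.29 that became 0.03 when arrays were scaled to the hybridisation controls. None of these 4 differences reached 2-fold.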

How the results depend on the processing

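Each count was recomputed under 10 other settings, and no called value of a gene changed sign. Of 275 single-enzyme values under another scaling, floor or probe set, 264 kept their side of 2-fold, 9 passed it and 2 (Lta4h) fell short. Of 600 values of called pathway genes 554 kept it, 12 passed it and 34 fell short. Most of these values were under 2-fold as deposited, so they could not fall short. Ptgs2 kept its calls in the 3 comparisons that involve LPS at every scaling, floor and probe set tried, and lost that in SEA/LPS over LPS at 3-fold.

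Called higher with LPS over media, the enzymes were 2 with the 75th percentile scaling and with quantile normalization (Ptges added) and 3 at 1.5-fold. Of all genes 724 of 9478, 631 of 9445 and 1340 of 9473 were then higher. Called lower in that comparison, the enzymes were 2 when scaled to the hybridisation controls (Alox5ap and Lta4h) and at 1.5-fold, and 1 with the floor at percentile 20 or with no floor (Alox15). Of all genes 2431 of 9534, 1987 of 9473, 1293 of 11474 and 848 of 12393 were then lower. Called lower with SEA/LPS over media, the enzymes were 0 with the 75th percentile scaling, with probe sets averaged and at 3-fold, and 2 with the floor at percentile 20 and at 1.5-fold. Of all genes 427 of 9478, 603 of 9473, 135 of 9473, 1233 of 11474 and 1917 of 9473 were then lower. Called higher in that comparison, the enzymes were 3 at 1.5-fold, beside 937 of 9473 genes. Called lower with SEA/LPS over LPS, the enzymes were 0 at 3-fold, and with SEA over media 1 at 1.5-fold, beside 49 and 380 of 9473 genes. For the SEA difference with and without LPS, 2 were called with the floor at percentile 20, with no floor and at 1.5-fold, and 0 at 3-fold.

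Counts of the 62 pathway genes moved more. The 8 called lower with LPS became 19 when scaled to the hybridisation controls, 13 with the floor at percentile 20, 15 at 1.5-fold and 4 at 3-fold. Over all genes, in the order of settings here and below, the 799 lower became 2431, 1293, 1987 and 190. The 2 called higher became 4 with the 75th percentile scaling and with no floor, 1 with the hybridisation controls, 6 with the floor at percentile 20, 8 at 1.5-fold and 0 at 3-fold. Over all genes the 574 higher became 724, 670, 284, 1084, 1340 and 260. The 7 lower with SEA/LPS over media became 12 with the hybridisation controls and with the floor at percentile 20, 14 at 1.5-fold and 2 at 3-fold. Over all genes the 668 lower became 1462, 1233, 1917 and 135. The 2 higher in that comparison became 4 with the floor at percentile 20 and 1 at 3-fold. Over all genes the 430 higher became 732 and 186. The 4 lower with SEA/LPS over LPS became 1 with the hybridisation controls, 8 with the floor at percentile 20, 2 with it at percentile 60 and with no floor, 7 at 1.5-fold and 0 at 3-fold. Over all genes the 329 lower became 134, 955, 152, 432, 1271 and 49. The 1 higher became 2 with the hybridisation controls and with the floor at percentile 20, 5 at 1.5-fold, and 0 with the floor at percentile 60, with no floor, with probe sets averaged and at 3-fold. Over all genes the 132 higher became 299, 493, 735, 57, 211, 98 and 16. The 1 higher with SEA became 0 with quantile normalization, with the hybridisation controls, with the floor at percentile 60 and at 3-fold. It became 3 with the floor at percentile 20 and 4 at 1.5-fold. Over all genes the 61 higher became 56, 73, 17, 5, 439 and 484. The 0 lower with SEA became 3 with the floor at percentile 20 and 1 at 1.5-fold, where over all genes 60 became 367 and 380. The 9 called for the SEA difference with and without LPS became 15 with the floor at percentile 20, 16 at 1.5-fold and 3 at 3-fold. The all-gene counts are those given above. Lower floors admit dim signals and other size thresholds move counts by construction; the cause of the other shifts was not tested.

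Scaling changed the split of all calls: 41.8% of those in LPS over media were higher as deposited, 55.4% with the 75th percentile and 10.5% with the hybridisation controls. For SEA/LPS over LPS the share was 28.6% as deposited, 39.5% with the 75th percentile, 43.3% with quantile normalization and 69.1% with the hybridisation controls. For SEA/LPS over media it was 39.2%, 58.6%, 52.0% and 16.5% in that order. No paired analysis was possible because each group has 1 array. Signals near the floor, among them those of Alox15 and the dimmer Lta4h probe sets, limit what can be read.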
